A study of Drosophila melanogaster with 10 samples.

Results

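Whole larvae of Drosophila melanogaster in the third instar, carrying a Jarid2 insertion, were compared with control larvae on Affymetrix arrays. The comparison rests on the 2 arrays titled as Jarid2 mutant larvae and the 2 titled as control larvae, 4 of the 10 arrays of the series, and covers 18769 probe sets, which stand for 11982 named genes. Per the labels, the mutant larvae have the genotype Jarid2MB00996/TM3, a Minos transposon insertion kept over the TM3 balancer chromosome, and the control larvae are wild type. Whether the larvae collected had the insertion on both chromosomes, their sex, and the strain behind the control are not given in the labels. All larvae were raised at 25 °C, and each sample was made from 20 whole larvae ground together, so every value is an average over animals and tissues. Nothing in the labels says whether the 2 samples of a group came from separate cultures, so the p-values describe the spread between these particular samples, part or all of which may be technical.

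The remaining larval arrays, 2 labelled E(z) RNAi (UAS-E(z)-RNAi, driver not given, genotype field wild type), entered the fit and served as a second point of reference. E(z) itself read higher on them, at 9.25 and 9.56 on the log2 scale, than in the controls, at 8.53 and 8.31, which goes against that label, so they are called the larvae labelled E(z) RNAi throughout. The other 4 arrays hold control and Jarid2 mutant cells from eye-antennal discs, separated by GFP fluorescence, and are used at the end to ask whether the larval changes were also seen there.

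Jarid2 is a DNA-binding protein that joins Polycomb repressive complex 2, the enzyme complex that methylates lysine 27 of histone H3 through its catalytic subunit E(z). That mark keeps developmental regulators silent where they are not needed, and Jarid2 is known both for bringing the complex to chromatin and for tempering its activity. The larva at this age is a feeding stage whose mass is mostly fat body, gut, salivary gland, muscle and body wall, with the imaginal discs a small part of its RNA.

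Each deposited value is a log2 expression level of one probe set. The lower quartile of a larval array lay between 5.09 and 5.30, the median between 7.39 and 7.54 and the upper quartile between 9.42 and 9.49. No detection calls came with the values, so a level under the lower quartile is treated here as dim, and a difference from such a level may understate the true one. Replicates correlated at 0.995 over all probe sets in the mutant larvae and at 0.983 in the controls. Control replicate 1 correlated more closely with replicate 1 of the larvae labelled E(z) RNAi (0.988) and with mutant replicate 2 (0.987) than with its own partner. The 2 control arrays differed by more than 2 on the log2 scale for 55 genes, against 7 genes for the mutant arrays and 27 for the larvae labelled E(z) RNAi. Markers of fat body, midgut, muscle, salivary gland, neurons, glia and haemocytes all lay above the lower quartile in the controls.

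Jarid2 itself fell steeply in the mutant larvae. Its log2 level was 9.63 and 9.48 in the control arrays, 4.19 and 4.26 in the mutant arrays, and 9.34 and 9.53 in the larvae labelled E(z) RNAi. Both mutant values were dim and far below all 4 others. The difference was -5.33 ± 0.13 (SE, 2 arrays a group; limma adjusted p = 0.000329). Where the probe set lies relative to the insertion was not examined. E(z) did not differ between mutant and control larvae beyond the spread (0.03 ± 0.16, limma adjusted p = 0.984).

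Few genes passed the test between mutant and control larvae, and many of those differed by a lot. Of 18769 probe sets, 154 (0.821%) passed an adjusted p of 0.05 by limma, 78 higher and 76 lower in the mutant. With each gene represented by its brightest probe set, 111 of 11982 genes (0.926%) passed, 59 higher (0.492%) and 52 lower (0.434%). The changes exceeded 2-fold for 110 of the 111 genes, 4-fold for 59 and 8-fold for 25, of which 17 fell and 8 rose. The smallest called change on the log2 scale was 1.00 in size for a rise and 0.97 for a fall. With 2 arrays a group the test favours large changes, so changes of that size or smaller may have been missed. The median change was 1.74 on the log2 scale among the genes that rose and -2.34 among those that fell. The genes that fell had a median control level of 8.99 and a median mutant level of 6.23, and those that rose went from 6.92 to 9.35, an order that the choice by direction favours. In all 111 genes the 2 mutant arrays lay outside the 2 controls, which is true of 35.7% of all genes. In 87 of the 111 the mutant arrays also lay outside all 4 other larval arrays, which is true of 17.4% of all genes. Tested directly against the larvae labelled E(z) RNAi, 52 of the 111 were called the same way, 57 were not called and 2 were called the opposite way. That contrast uses the same mutant arrays and called 1.44% of all genes. Of the 111 genes, 55 have only a CG or CR number, and 8 had dim controls and 10 a dim mutant level.

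**Figure D1:**
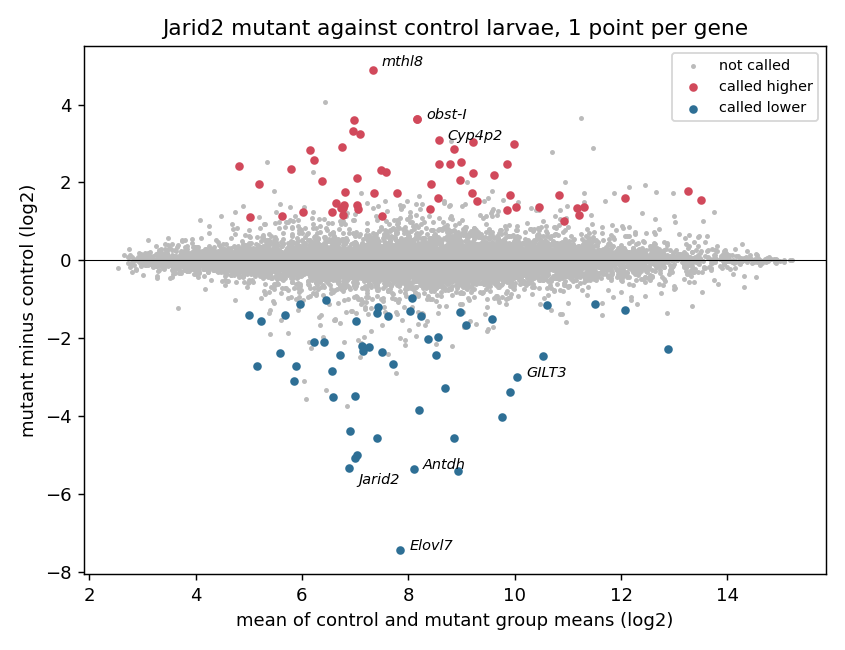
Difference between Jarid2 mutant and control larvae (log2, vertical axis) against the mean of the control and mutant group means (log2, horizontal axis), one point per gene, with the 59 genes that rose and the 52 that fell at an adjusted p under 0.05 coloured. Most genes sit around 0, and Elovl7, CG32198, Antdh and Jarid2 at the bottom and mthl8 at the top are among those farthest from it.

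The fall with the largest measured difference was that of Elovl7, a fatty acid elongase, an enzyme that lengthens very long chain fatty acids. It read 11.52 and 11.63 in the controls, 4.00 and 4.26 in the mutant larvae, and 11.35 and 10.85 in the larvae labelled E(z) RNAi. The mutant arrays were dim and the other 4 were bright, with no overlap. The difference from the controls was -7.45 ± 0.20 (limma adjusted p = 0.000329), with its size limited by the dim mutant level. Against the larvae labelled E(z) RNAi it was -6.97 ± 0.20 (limma adjusted p = 0.000635). A second elongase, Elo68alpha, a male-specific enzyme of pheromone lipid synthesis in adults, read 8.13 and 8.48 in the controls and 5.77 and 6.19 in the mutant larvae. It fell by 2.32 on the log2 scale (limma adjusted p = 0.0288). The larvae labelled E(z) RNAi read 6.83 and 7.44 for it, and the direct difference from them did not pass (-1.16, limma adjusted p = 0.118). Elovl7 and Elo68alpha were the members called among 19 measured elongases, 0 of which rose. The family's median difference was -0.04 against 0.01 over all genes.

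Antdh, Tmlh and ry, enzymes of small-molecule metabolism, fell in the mutant larvae. Antdh, a short-chain dehydrogenase first described from the antenna, read 10.55 and 11.01 in the controls against 5.84 and 4.98 in the mutant larvae, a difference of -5.37 ± 0.33 (limma adjusted p = 0.00521). Its level in the larvae labelled E(z) RNAi, 9.86 and 10.27, stayed on the side of the controls. Tmlh, trimethyllysine hydroxylase of carnitine synthesis, read 8.24 and 9.23 in the controls and 5.44 and 5.05 in the mutant larvae, and fell by 3.49 (limma adjusted p = 0.0171). The larvae labelled E(z) RNAi, at 6.16 and 5.96, sat nearer the mutant for this gene, and the direct difference from them did not pass (-0.81 ± 0.34, limma adjusted p = 0.31). ry (rosy), the xanthine dehydrogenase of purine breakdown and eye pigment, read 8.72 and 8.65 in the controls and 6.42 and 6.24 in the mutant larvae, a difference of -2.36 ± 0.20 (limma adjusted p = 0.0115). The larvae labelled E(z) RNAi read 8.72 and 9.24 for it, with both values at or above the controls.

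Cytochrome P450 genes, which encode monooxygenases of hormone and toxin metabolism, moved in both directions. Of 83 measured, 2 rose and 3 fell, with a family median of 0.07. Over all genes 0.492% rose and 0.434% fell, the shares to set beside this and the other family counts. Cyp6a18 read 8.46 and 8.19 in the controls and 4.50 and 5.16 in the mutant larvae, and fell by 3.50 (limma adjusted p = 0.00963), with the larvae labelled E(z) RNAi at 7.86 and 8.32 beside the controls. Cyp6a20, which in adult flies is known for an effect on male aggression, fell by 2.10 (limma adjusted p = 0.0288) and Cyp6d5 by 1.28 (limma adjusted p = 0.0408). For Cyp6a20 the larvae labelled E(z) RNAi were low as well, at 4.45 and 5.01 against 5.28 and 5.45 in the mutant larvae. Cyp4p2 went the other way, from 6.83 and 7.21 in the controls to 9.88 and 10.35 in the mutant larvae, a difference of 3.10 ± 0.23 (limma adjusted p = 0.00892). The larvae labelled E(z) RNAi, at 6.41 and 6.75, lay below the controls for it, and the mutant larvae exceeded them by 3.54 (limma adjusted p = 0.00685). Cyp6a14 rose by 2.19 (limma adjusted p = 0.0102), from 8.60 and 8.43 to 10.88 and 10.54.

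Among conjugating and protective proteins, glutathione transferases gave 2 that rose and 0 that fell of 34 measured. GstE1, which attaches glutathione to reactive compounds, read 8.63 and 8.61 in the controls, 11.17 and 11.03 in the mutant larvae, and 10.97 and 11.13 in the larvae labelled E(z) RNAi. Both non-control groups were high and close together, and the mutant rise was 2.49 ± 0.13 (limma adjusted p = 0.00386). GstE5 rose by 1.17 (limma adjusted p = 0.0355), and its difference from the larvae labelled E(z) RNAi did not pass (-0.17, limma adjusted p = 0.643). Prx6c, a peroxiredoxin, the antioxidant type that reduces peroxides, read 5.04 and 5.34 in the controls and 9.12 and 8.46 in the mutant larvae, up by 3.60 ± 0.26 (limma adjusted p = 0.00833), as 1 of 11 peroxiredoxins and thioredoxins measured. The larvae labelled E(z) RNAi were also high for Prx6c, at 8.11 and 7.76, and the direct difference did not pass (0.85, limma adjusted p = 0.198). MtnB, a metal-binding metallothionein, went from 7.90 and 7.20 to 10.10 and 9.95, a rise of 2.47 ± 0.30 (limma adjusted p = 0.0308), as 1 of 4 metallothioneins. For MtnB the larvae labelled E(z) RNAi, at 8.71 and 9.30, were also above the controls. The direct difference from them did not pass (1.02, limma adjusted p = 0.175). Of 35 UDP-glycosyltransferases, which attach sugars to small molecules, 1 fell: Ugt35C1, by 1.02 (limma adjusted p = 0.0438). No member of 17 heat shock proteins and chaperones passed, and their median was 0.10.

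**Figure D2:**
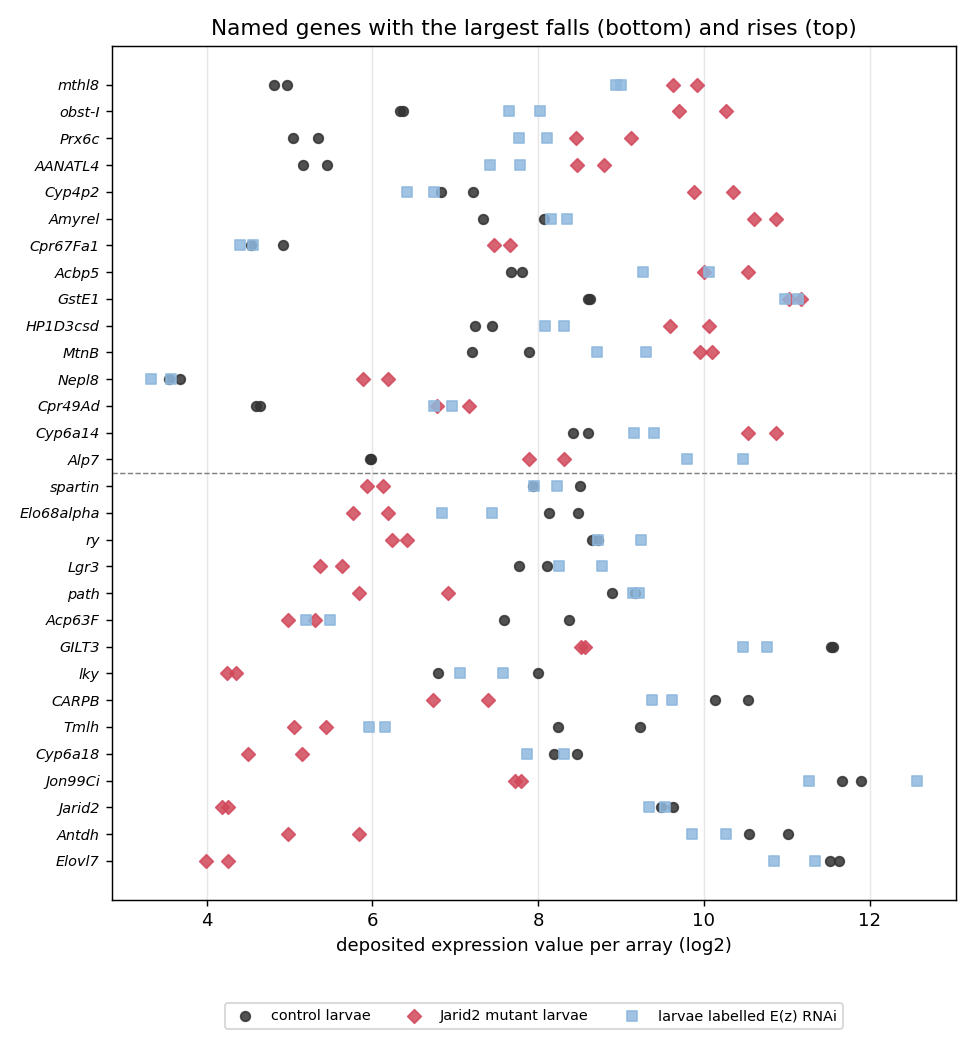
Log2 level (horizontal axis) on each larval array for the 15 named genes that rose most and the 15 that fell most (vertical axis), with points for control larvae, Jarid2 mutant larvae and larvae labelled E(z) RNAi. The mutant points of Elovl7, Antdh and Jarid2 stand alone at the low end, whereas for mthl8 and GstE1 the mutant and E(z) RNAi-labelled points both lie above the controls.

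The highest rise was that of mthl8, a methuselah-like G protein-coupled receptor. It read 4.81 and 4.97 in the controls, 9.63 and 9.92 in the mutant larvae, and 8.94 and 9.00 in the larvae labelled E(z) RNAi. The controls were dim and stood apart from all 4 other arrays. The rise over the controls was 4.89 ± 0.15 (limma adjusted p = 0.000472), and its second probe set rose by 4.59. The mutant larvae exceeded the larvae labelled E(z) RNAi by 0.81 ± 0.15, which did not pass (limma adjusted p = 0.0788). It was the member called among 15 methuselah-family receptors, whose median was 0.08.

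Genes that act in the gut rose and fell without a common direction. Jon99Ci and Jon74E belong to the Jonah serine proteases, digestive enzymes of the midgut. Jon99Ci read 11.67 and 11.90 in the controls and 7.79 and 7.72 in the mutant larvae, a fall of 4.03 on the log2 scale (limma adjusted p = 0.019), while the larvae labelled E(z) RNAi read 11.27 and 12.57. Jon74E rose from 12.65 and 12.10 to 14.17 and 14.14, by 1.78 ± 0.20 (limma adjusted p = 0.0264), and read 14.10 and 14.04 in the larvae labelled E(z) RNAi. These were the 2 called of 13 measured Jonah genes, whose median was 0.03. Amyrel, a relative of amylase, read 8.08 and 7.33 in the controls and 10.87 and 10.61 in the mutant larvae, up by 3.03 ± 0.26 (limma adjusted p = 0.0121). It was the gene called among 18 gut glycosidases, whose median was -0.28. LysX, a lysozyme, had a difference of 3.67 ± 0.54 that did not pass (limma adjusted p = 0.0607), with the 2 controls far apart at 10.29 and 8.54. None of the 3 measured lysozymes was called, and their differences ranged from -2.09 to 3.67 with a median of -1.19. The mean level of 5 midgut markers, Jon74E among them, was 11.85 and 12.03 in the controls and 12.51 and 12.26 in the mutant larvae. The differences of these markers ranged from -0.76 to 1.87 with a median of -0.25, and the part of gut content in these values was not tested. In whole larvae, fewer cells of a type and less RNA per cell cannot be told apart.

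Among genes of the cuticle and the gut lining, a few rose. Of 31 measured obstructor, peritrophin and mucin genes, obst-I rose and 0 fell, with a median of 0.03. obst-I, a chitin-binding protein of the obstructor family, read 6.37 and 6.33 in the controls, 10.27 and 9.70 in the mutant larvae, and 8.03 and 7.65 in the larvae labelled E(z) RNAi. The 3 groups did not overlap, and the mutant was the highest, by 3.63 ± 0.23 over the controls (limma adjusted p = 0.00521) and by 2.14 over the larvae labelled E(z) RNAi (limma adjusted p = 0.0227). Of 104 cuticle protein genes, 3 rose and 0 fell, with a median of 0.02. Cpr67Fa1 read 4.54 and 4.92 in the controls, both dim, and 7.66 and 7.47 in the mutant larvae, a rise of 2.84 ± 0.17 (limma adjusted p = 0.00521). Its neighbour Cpr67Fa2 went from 7.86 and 7.65 to 9.57 and 9.13, a rise of 1.60 (limma adjusted p = 0.0288). Neither was raised in the larvae labelled E(z) RNAi, which read 4.41 and 4.56 for Cpr67Fa1 and 7.18 and 7.25 for Cpr67Fa2, at or below the controls. The other cuticle gene, Cpr49Ad, read 4.65 and 4.59 in the controls, 6.79 and 7.16 in the mutant larvae and 6.74 and 6.96 in the larvae labelled E(z) RNAi, so both groups were above the controls. Sgs5bis, a relative of the salivary glue proteins that fix the pupa to its substrate, rose by 1.54 ± 0.12 (limma adjusted p = 0.0105) as 1 of 11 glue genes, while 5 salivary gland markers averaged 14.86 and 14.90 in the controls and 14.87 and 14.93 in the mutant larvae.

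Lgr3, the receptor through which the relaxin-like peptide Ilp8 delays metamorphosis when tissues grow abnormally, read 8.11 and 7.77 in the controls and 5.63 and 5.37 in the mutant larvae. It read 8.25 and 8.77 in the larvae labelled E(z) RNAi, so the mutant larvae alone were low. The fall from the controls was 2.44 on the log2 scale (limma adjusted p = 0.0152). path (pathetic), an amino acid transporter that promotes growth, read 9.17 and 8.89 in the controls and 5.84 and 6.91 in the mutant larvae, a difference of -2.66 ± 0.34 (limma adjusted p = 0.0417). Its mutant arrays were spread, but both lay below all 4 others. Acbp5, an acyl-CoA binding protein, rose from 7.80 and 7.67 to 10.00 and 10.53, by 2.53 ± 0.31 (limma adjusted p = 0.0334), as 1 of 6 in its family. AANATL4, an arylalkylamine acetyltransferase-like gene, rose from 5.16 and 5.45 to 8.80 and 8.46, by 3.33 ± 0.20 (limma adjusted p = 0.00521). The larvae labelled E(z) RNAi were above the controls for both, at 9.27 and 10.07 for Acbp5 and 7.41 and 7.78 for AANATL4. Neither direct difference from them passed (limma adjusted p = 0.414 and 0.0863). Alp7, an alkaline phosphatase, read 5.98 on both controls, 7.89 and 8.32 in the mutant larvae and 9.79 and 10.48 in the larvae labelled E(z) RNAi. The mutant level thus lay between the other groups, 2.12 above the controls (limma adjusted p = 0.0355) and 2.03 below the larvae labelled E(z) RNAi (difference -2.03 ± 0.26, limma adjusted p = 0.0349).

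Further named genes with large changes belonged to other roles. Acp63F, a protein of the male accessory gland, read 8.37 and 7.59 in the controls, 4.98 and 5.31 in the mutant larvae and 5.49 and 5.20 in the larvae labelled E(z) RNAi. The controls alone were high, and the mutant difference was -2.84 ± 0.29 (limma adjusted p = 0.019). The mean level of 7 testis markers, as a measure of male tissue, was 7.51 and 8.38 in the controls and 7.63 and 7.56 in the mutant larvae, and the share of males in the samples was not tested. spartin, an endosomal protein, fell from 8.50 and 7.94 to 6.13 and 5.93, by 2.19 (limma adjusted p = 0.0195), while the larvae labelled E(z) RNAi, at 7.95 and 8.23, lay with the controls. lky, whose lower control read 6.79, fell to 4.24 and 4.36 in the mutant larvae, both dim, a difference of -3.09 ± 0.41 (limma adjusted p = 0.0434), and it lost the call when control and mutant larvae were fitted alone. Nepl8, a neprilysin-like peptidase, was dim in the controls at 3.68 and 3.55 and in the larvae labelled E(z) RNAi at 3.57 and 3.33. Only the mutant larvae showed it, at 6.18 and 5.89, a rise of 2.42 ± 0.16 (limma adjusted p = 0.00627). Ir100a, an ionotropic receptor of the chemosensory type, rose by 1.13 (limma adjusted p = 0.0445) as 1 of 53 in its family. None of 58 odorant receptors, 56 gustatory receptors or 47 odorant-binding proteins passed. As 0.926% of all genes passed, less than 1 call in each of these lists would be due to that share. Only 12 of the odorant and 13 of the gustatory receptors averaged above the lower quartile in larvae, so most were dim.

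Called genes of the immune and stress families were single members of each family. GILT3, a lysosomal thiol reductase, was steady within groups, at 11.54 and 11.55 in the controls and 8.52 and 8.56 in the mutant larvae, and fell by 3.00 on the log2 scale (limma adjusted p = 0.00342), as 1 of 3 in its family. NimC1, a phagocytosis receptor of haemocytes, read 10.28 and 10.39 in the controls and 9.05 and 8.58 in the mutant larvae, a difference of -1.52 ± 0.18 (limma adjusted p = 0.0333). It was the member called among 15 haemocyte genes, whose mean level was 9.15 and 9.30 in the controls and 9.45 and 9.29 in the mutant larvae. For NimC1 the larvae labelled E(z) RNAi read 8.92 and 8.82, and the direct difference from them did not pass (-0.05, limma adjusted p = 0.927). TotB, a secreted Turandot stress protein and 1 of 5 measured, fell by 2.11 (limma adjusted p = 0.0171), and the larvae labelled E(z) RNAi were lower still, at 4.76 and 4.43 against 5.40 and 4.92 in the mutant larvae and 7.28 and 7.27 in the controls. None of 14 antimicrobial peptide genes passed, and 0 of 7 peptidoglycan recognition proteins, where 0.926% of all genes passed. Several genes of these families differed widely between the 2 control arrays: PGRP-SB2 read 12.70 and 5.73, and TotC read 9.63 and 5.10. No member of the Eig71E cluster, ecdysone-induced genes of the late larva, passed either. Its median was -1.02, and Eig71Ed read 11.33 and 4.39 on the 2 controls, so this median leans on control replicate 1.

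**Figure D3:**
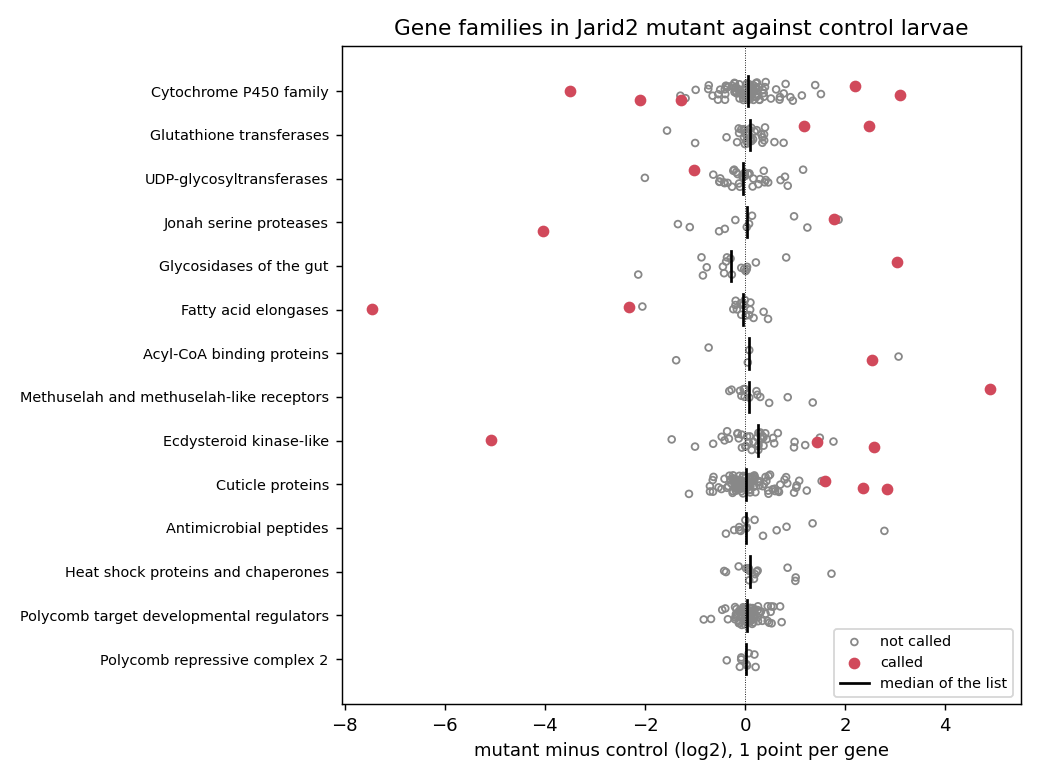
Difference between Jarid2 mutant and control larvae (log2, horizontal axis) for each measured member of selected gene lists (vertical axis), with members that passed the test coloured and the median of each list marked. The Polycomb lists cluster at 0, while P450, Jonah and ecdysteroid kinase-like genes have single members far out on either side.

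None of the measured genes on the Polycomb lists was called, where 0.926% of all genes were, so that less than 1 call would be due to that share even in the longest of these lists. The 9 measured genes of Polycomb repressive complex 2, Jarid2 being counted apart, ranged from -0.37 to 0.21. Nor did any of 7 genes of the complexes PRC1, PhoRC and PR-DUB, 19 trithorax group genes or 9 JmjC histone demethylases pass. The 79 measured developmental regulators that Polycomb is known to silence ranged from -0.83 to 0.73 with a median of 0.05, and 0 passed. The 4 measured Hox genes were Antp at -0.69 (limma adjusted p = 0.397), Scr at -0.02, pb at 0.25 and Dfd at 0.52. The remaining Hox genes were not analysed here. Within the chromatin lists, HP1D3csd, a chromo shadow domain gene of the HP1 family, was the exception. It read 7.45 and 7.24 in the controls, 10.06 and 9.59 in the mutant larvae and 8.31 and 8.08 in the larvae labelled E(z) RNAi. Its 3 groups did not overlap, and the rise was 2.48 ± 0.20 over the controls (limma adjusted p = 0.0104).

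Across the 66 gene lists examined, 43 held no called gene, 13 held genes that rose, 7 genes that fell and 3 both. At the share of 0.926% over all genes, a short list can lack a call for its length alone. The lists with none included 45 testis genes (median -0.26), 14 muscle genes (0.07), 69 mitochondrial ribosomal protein genes (0.13), 73 respiratory chain genes (0.07), 23 genes of the ecdysone cascade and 25 piRNA pathway genes. The ecdysteroid kinase-like family, named for an insect enzyme that phosphorylates moulting hormone, gave 2 that rose and 1 that fell of 42, with a median of 0.25. Its member CG11893 read 9.89 and 9.20 in the controls and 4.30 and 4.63 in the mutant larvae, a fall of 5.08 (limma adjusted p = 0.00627). CG13658, the measured gene next to it, went from 4.97 and 4.91 to 7.76 and 7.27, a rise of 2.57 (limma adjusted p = 0.0115). The controls and mutant arrays of these neighbours thus exchanged places, and the larvae labelled E(z) RNAi read between the other groups for CG11893, at 6.47 and 5.69, and level with the mutant for CG13658, at 7.34 and 7.73.

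Genes without a name beyond a CG number were among the furthest moved. CG32198 read 11.22 and 12.06 in the controls and 6.23 and 6.22 in the mutant larvae, a fall of 5.42 (limma adjusted p = 0.0247). CG17191 fell by 4.99 (limma adjusted p = 0.00386), from 9.85 and 9.22 in the controls to 4.44 and 4.66 in the mutant larvae, with both arrays of the larvae labelled E(z) RNAi in between. CG14852 read 10.91 and 11.36 in the controls and was low in both other groups, at 6.72 and 6.41 in the mutant larvae and 5.65 and 6.36 in the larvae labelled E(z) RNAi. Among the risers, CG13461 gained 3.62 (limma adjusted p = 0.0288), CG13488 gained 3.23 (limma adjusted p = 0.0115) and CG9903 gained 2.99 (limma adjusted p = 0.00386). All 3 were also above the controls on both arrays of the larvae labelled E(z) RNAi, at 8.46 and 9.53, 8.75 and 8.20, and 11.52 and 11.85.

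The mutant larvae and the larvae labelled E(z) RNAi were each set against the same 2 controls, so likeness between those differences can come from the controls alone. The direct contrast between them does not use the control levels. In it, 252 of 18769 probe sets passed (1.34%), 127 higher and 125 lower in the mutant larvae, and 172 genes (1.44%). Among genes with a name, the largest falls there were those of Elovl7, Jarid2 (-5.21), Antdh (-4.65), y (yellow, a pigmentation gene, -4.27, limma adjusted p = 0.000635) and Jon99Ci (-4.17). For y the mutant larvae, at 3.63 and 3.64, were as dim as the controls, at 3.65 and 3.80, and only the larvae labelled E(z) RNAi were high, at 8.01 and 7.79. CG32198, known by number alone, fell by 4.99 (limma adjusted p = 0.0256). The largest rises among genes with a name were edin (3.95, limma adjusted p = 0.0153) and CecB (3.73, limma adjusted p = 0.0243), both immune-induced peptides, followed by Cyp4p2, PGRP-SB1 (3.09, limma adjusted p = 0.00606) and Cpr67Fa1 (3.09). All 3 immune genes were lower in the larvae labelled E(z) RNAi than in both other groups. PGRP-SB1, a peptidoglycan recognition protein, read 12.52 and 12.13 in the controls, 11.25 and 11.51 in the mutant larvae and 8.23 and 8.35 in the larvae labelled E(z) RNAi. CecB differed from the controls by 1.35, which did not pass (limma adjusted p = 0.383).

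Called genes were unevenly placed along the chromosomes. Jarid2 lies on 3L, and chromosome 3 is the one that TM3 balances. On chromosome 3, 69 of 5318 measured genes were called (1.3%), against 41 of 6575 elsewhere (0.624%), and 0.925% over all placed genes. By arm the share was 1.48% on 3R, 1.07% on 3L, 0.948% on 2R, 0.641% on X and 0.227% on 2L. On 3R, 29 genes fell and 15 rose, whereas on 2R 4 fell and 19 rose. In the contrast with the larvae labelled E(z) RNAi, which uses the same mutant arrays, the share was 1.92% on 3R, 1.83% on 3L and 0.816% on 2L. For the larvae labelled E(z) RNAi against the controls, it was 1.08% on 3R, 0.981% on 3L and 1.11% on 2R. That contrast, which leaves out the mutant levels, gave 1.01% on X and 0.68% on 2L. In disc cells, where the labels' Jarid2 contrast uses other arrays, it was 2.66% on 3R, 3.07% on 3L and 3.36% on 2L. The labels name the balancer in the genotype of the mutant larvae, and whether the larvae collected carried it was not tested. The control is given as wild type, so insertion, balancer and any difference of strain cannot be told apart in these shares. Around Jarid2, 1 of the 20 nearest measured genes was called (path), and 3 of the 200 nearest (path, aay and Acbp5).

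**Figure D4:**
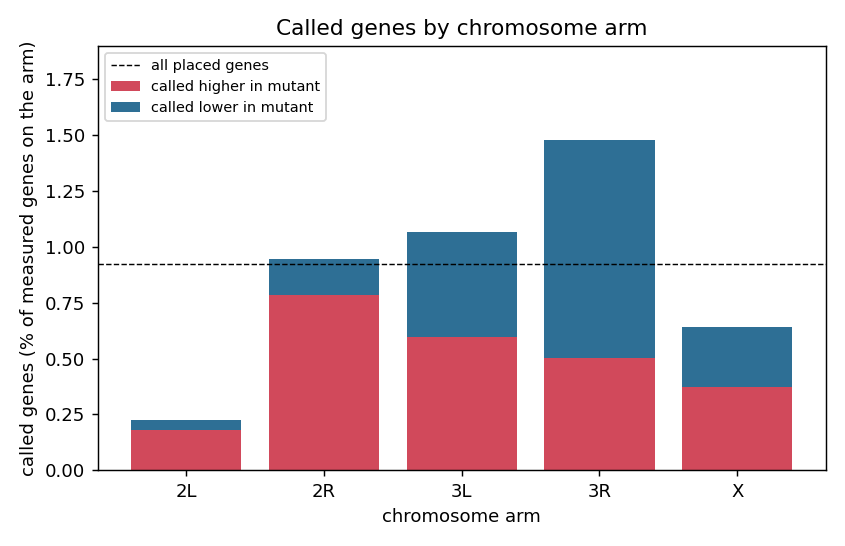
Percentage of measured genes called on each chromosome arm (vertical axis) in the larval Jarid2 comparison, split into genes that rose and genes that fell. Bars start at 0, and 3R is the highest at 1.48% while 2L is the lowest large arm at 0.227%.

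In the disc cells, few of the larval changes were seen. There, 354 genes (2.95%) passed for mutant against control cells. The larval and disc lists shared 14 genes, which is 12.6% of the 111 larval genes and 3.95% of the 354 disc genes. Of the 111, 30 lay under the disc arrays' own lower quartile on all 4 disc arrays, a lower level than the larval quartile used above. Of these, 11 rose and 19 fell in larvae, and a fall could not be measured in disc cells for the latter. Elovl7, for example, averaged 3.63 and 3.66 in control and mutant disc cells. Other fallers were above the disc quartile but under the larval one, such as Jon99Ci (4.76 and 4.91) and Lgr3 (4.83 and 4.87). Falls that disc cells could not show may thus number more than 19. The genes that moved the same way numbered 4: Jarid2 (-2.90, limma adjusted p = 0.00153), NimC1 (-4.48, limma adjusted p = 0.000512), GILT3 (-1.05, limma adjusted p = 0.00162) and mthl8 (1.28, limma adjusted p = 0.00346). Jarid2 kept more signal in mutant disc cells, 7.64 and 6.80 against 10.14 and 10.10 in control cells, than in mutant larvae, and the effects differed by 2.43 (limma adjusted p = 0.0162). That test of the disc effect against the larval effect called 517 of all probe sets (2.75%) and 423 genes (3.53%).

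The other 10 shared genes all rose in mutant larvae and fell in mutant disc cells. HP1D3csd went from 9.28 and 9.87 in control disc cells to 5.24 and 5.66 in mutant cells, a difference of -4.12 (limma adjusted p = 0.000311), and its disc effect minus its larval effect was -6.60 ± 0.36 (limma adjusted p = 0.000303). CG30098 and CG30087 showed the same reversal, with disc effects of -3.06 and -3.24 against larval effects of 2.91 and 1.95. Drep3, a gene of the DNA fragmentation factor family, rose by 1.72 in larvae and read 1.88 lower in mutant disc cells (difference -1.88, limma adjusted p = 0.000209). aay, phosphoserine phosphatase, rose by 1.67 in larvae and differed by -1.38 in disc cells (limma adjusted p = 0.048). CG14642, CG8066, CG31955, CG7322 and lncRNA:CR32027 completed the group, with disc effects of -1.95, -2.26, -1.22, -0.79 and -0.54. Set against the larvae labelled E(z) RNAi, mutant larvae were also called higher for HP1D3csd, CG30087, aay and CG14642. CG30098, CG8066, CG31955, Drep3 and lncRNA:CR32027 were not called there. Drep3 read 8.24 and 8.20 in the larvae labelled E(z) RNAi and 8.26 and 8.16 in the mutant larvae. CG7322 was lower in the mutant larvae than in those labelled E(z) RNAi (-0.80, limma adjusted p = 0.0481). A second probe set did not follow the larval rise of CG14642 (-0.51) or Drep3 (0.24, limma adjusted p = 0.929). Haemocyte genes moved with the disc groups: 12 of 15 were lower in mutant disc cells, and their mean level was 10.58 and 11.45 in control cells and 6.31 and 6.62 in mutant cells, with srp lowest at 3.99. Their part in the disc values was not tested.

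**Figure D5:**
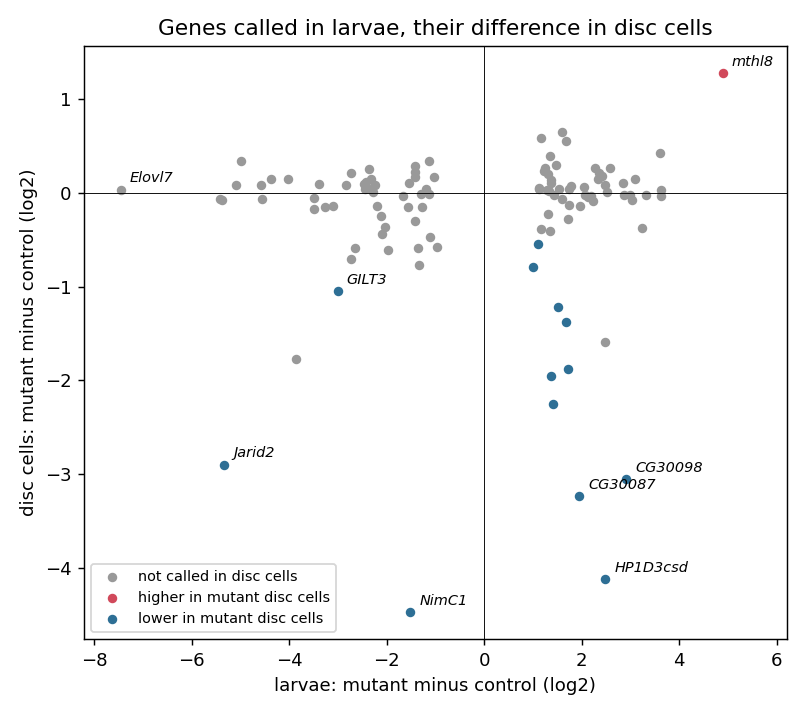
Jarid2 mutant minus control in larvae (log2, horizontal axis) against the same difference in disc cells (log2, vertical axis) for the 111 genes called in larvae. Most points lie near 0 on the vertical axis, Jarid2 lies in the lower left with GILT3 and NimC1, and HP1D3csd, CG30098 and CG30087 lie in the lower right.

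The larval differences rested on 2 arrays a group. All 111 genes kept their direction with any 1 of the 6 larval arrays left out, which was fixed in advance because their groups do not overlap. The number still called depended on which array was left out, and was lowest without a mutant array. Elovl7, Jarid2 and mthl8 were called whichever array was left out. Of the 111 genes, 11 had further probe sets, 17 in all, of which 4 were called the same way, 8 others had the same sign, some of them near 0, and 5 had the opposite sign. CARPB, a carbonic anhydrase-related protein, fell by 3.27 on its brightest probe set (limma adjusted p = 0.0108) but differed by 0.03 on its other one (limma adjusted p = 0.98), and the probe sets of CG34005 moved in opposite directions (1.23 and -1.08).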

How the data were processed

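Values deposited by the authors are on a log2 scale, judged from their range, with 1 value for each probe set. The submitters' processing notes name limma 3.4.3, while background correction, normalization and summary of probes were not given in the sources used here. Per the labels, 200.0 ng of total RNA was biotin-labelled per sample. Each value column matched a sample by its name, and 0 were left over. Of 18952 probe sets, 183 array controls were left out. In the platform annotation 13647 probe sets have 1 gene, 402 have several and 4720 are unnamed, and 13544 of the 13647 matched the RefSeq gene table, which served for chromosome arm and gene order only. Where a gene had several probe sets, the brightest over the 6 larval arrays stood for it.

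Group means of the 3 larval groups were fitted with limma 3.58.1 (lmFit, eBayes; R 4.3.3) and no covariate (3 residual and 2.72 prior degrees of freedom). The disc arrays were kept out of this fit because their replicates were tighter, with a median residual SD of 0.0978 against 0.16 for larvae. The disc contrast and its difference from larvae needed both tissues and came from a fit of the 8 control and Jarid2 arrays (4 residual and 2.85 prior degrees of freedom), whose shared spread can make p-values too small where larvae vary more. P-values are two-sided, adjusted by Benjamini-Hochberg over 18769 probe sets and called under 0.05. The fits were tested on simulated data. Figures were drawn with matplotlib 3.10.9.

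The comparison, members and gene lists were chosen with earlier results of these data known. Genes were named as the 15 largest rises and falls among called genes with a name and non-overlapping arrays, 4 rises and 4 falls among genes known by a CG or CR number alone, called list members and the 5 largest each way against the larvae labelled E(z) RNAi. LysX, Eig71Ed, PGRP-SB2, TotC, the Hox genes and the genes called in both larvae and discs were added after their values were seen. The number of arrays limits the precision. Alternatives tried were another scaling, filters, variance settings, blocks and left-out arrays.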

Additional observations from a re-analysis of the deposited data

Results flagged for a closer look

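The Jarid2 effect was tested for a difference between disc cells and larvae (disc effect minus larval effect, log2, limma), and 37 of the genes named by size differed, at adjusted p-values from 2.36e-05 (Elovl7) to 0.0256 (lky). The genes were picked for their larval change, which favours such a difference, and many of them were dim in disc cells, so the count is a description. The fit behind this test shared 1 spread between larvae and the tighter disc arrays, and for 10 of the 38 genes named by size the standard error of the difference was below that of the larval effect alone (0.36 against 0.59 for CG32198), so these p-values may be too small.

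Among genes that rose in larvae, the difference was -6.60 for HP1D3csd, -5.97 for CG30098, -4.07 for MtnB, -3.65 for CG13461, -3.61 for CG13488, -3.60 for mthl8 and for obst-I, -3.34 for AANATL4, -3.17 for Prx6c and -3.11 for Amyrel. It was -3.02 for CG9903, -2.94 for Cyp4p2, -2.73 for Cpr67Fa1, -2.52 for Acbp5, -2.40 for GstE1, -2.24 for Nepl8, -2.22 for Cyp6a14, -2.17 for Alp7 and -2.14 for Cpr49Ad. HP1D3csd and CG30098 had opposite called changes in the 2 tissues, and mthl8 rose in both but less in disc cells. Cyp4p2 and GstE1 were well measured in disc cells, at control means of 10.32 and 9.11, where their differences were 0.16 and 0.09 and did not pass.

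Among genes that fell in larvae, the difference was 7.48 for Elovl7, 5.35 for CG32198, 5.33 for CG17191, 5.29 for Antdh, 5.16 for CG11893, 4.66 for CG14852, 4.18 for Jon99Ci, 3.44 for Tmlh, 3.33 for Cyp6a18 and 3.12 for CARPB. It was 2.96 for lky, 2.92 for Acp63F, 2.61 for ry, 2.48 for Lgr3, 2.47 for Elo68alpha, 2.43 for Jarid2, 2.06 for spartin and 1.96 for GILT3. Jarid2 and GILT3 fell in both tissues, less so in disc cells. For Elovl7, CG11893 and CG17191 the control disc cells already read 3.63, 2.96 and 2.96, so a fall could not be measured there. In disc cells ry read 6.10 in the controls and 6.36 in the mutant cells, a difference of 0.26 that did not pass.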

How the results depend on the processing

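The number of called probe sets depended on how the spread was estimated. For Jarid2 mutant against control larvae it was 154, and 451 with all 5 groups in one fit, 232 with median centring and 65 with the replicate number as a block. Leaving out 1 larval array gave 5 to 112, the lowest without mutant replicate 1 (5) and mutant replicate 2 (6), then 44 without control replicate 1 and 54 without control replicate 2. When a group was left with 1 array, that array was assumed to vary like the other groups. For mutant larvae against larvae labelled E(z) RNAi the number was 252, and 1146 with all 5 groups, 142 without the dimmest 30% of probe sets, 391 with an intensity trend, 426 with array weights, 45 with the replicate block and 5 to 185 with 1 array left out (58 and 26 without an array labelled E(z) RNAi, 5 and 7 without a mutant array). For the difference between disc cells and larvae it was 517, and 197 with the replicate block and 264 to 1690 with 1 array left out, the highest without control replicate 1. The cause was not tested in any of these.

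The replicate numbers were not used as pairs in the main fit. Rep 1 minus rep 2 correlated at -0.422 between control and mutant larvae, so these arrays varied together in crossed order. The main fit treats the arrays as independent, and whether they are was not tested. Crossing the numbers, chosen after seeing the data, gave 122 and 173 calls in the first and second comparison. No named gene reversed in any alternative. For called genes without overlap between the 2 groups, leaving out an array could not reverse the direction. Of the 38 genes named by size, 35 stayed called under every alternative that tested them, other than blocks and left-out arrays, the exceptions being lky, path and Alp7, and 27 stayed called under the replicate block. Signal over background could not be judged without detection calls, which limits the dim genes.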

Other observations

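The control arrays differed most at CG7924, which read 14.21 and 5.86, and at e (ebony, an enzyme of pigment and amine metabolism), which read 13.63 and 7.47. Over all genes, 19 differed by more than 4 on the log2 scale between the 2 controls, 0 between the mutant arrays and 6 between those labelled E(z) RNAi. PGRP-SB2, a peptidoglycan recognition protein, read 5.47 and 7.16 in the mutant larvae, near control replicate 2 (5.73) and far from control replicate 1 (12.70), while the larvae labelled E(z) RNAi read 12.61 and 9.66.

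Of the 154 called probe sets, 29 carry no single gene name, 13 higher and 16 lower in the mutant larvae. Runs of neighbouring called genes were short. On 3R, CG14852 and CG31313 fell, by 4.57 and 2.28, beside CG8066, which rose by 1.41 (limma adjusted p = 0.0445).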
